A study of Mus musculus with 2 samples.

Results

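The 4 genes of the mouse Ebf family, Ebf1, Ebf2, Ebf3 and Ebf4, were examined for binding of Ebf1 itself in fat cells. A deposited list of Ebf1-bound regions (peaks) was searched at each gene and in about 50 kb on either side, and a peak was counted where its centre lay in the interval. This gave 39 peaks of the 34534 in the list, with 20 at Ebf1, 10 at Ebf2, 2 at Ebf3 and 7 at Ebf4. The peaks come from chromatin immunoprecipitation and sequencing (ChIP-seq), in which protein is fixed to DNA, pulled down with an antibody and the attached DNA is sequenced. The cells were 3T3-L1, a mouse fibroblast line that becomes fat-storing, taken 10 days after induction with the adipogenic mixture MDI and fixed with 1% formaldehyde. The labels describe 2 libraries of these cells, 1 precipitated with anti-Ebf1 antibody and 1 whole cell extract (WCE) without antibody. Values were analysed for the Ebf1 library only, so no value below has a replicate error or a control beside it, and no test between conditions was possible. Whether the antibody also binds Ebf2, Ebf3 or Ebf4 is not given in the sources used here.

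Ebf proteins are helix-loop-helix transcription factors that bind DNA as dimers, and the site they prefer is a palindrome with the core CCCNNGGG. Ebf1 is best known as a factor that commits progenitors to the B cell lineage, where it also acts on its own gene, and it takes part in fat cell formation. Ebf2 is known for its part in brown and beige fat cell identity, Ebf3 is close to both in sequence and is known from neurons and bone marrow stroma, and Ebf4 is the member studied least. A factor that binds at its own gene may feed back on its own supply, and binding at the genes of its relatives may link their levels. A peak list shows where the protein was found and does not show what it does there.

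Promoter sequence was at hand for Ebf1, Ebf3 and Ebf4, in RefSeq windows of 300 bases on the GRCm38.p6 build, from 250 bases before each annotated start to 50 after it. The peaks are on the mm9 build, so these windows were not placed against them. The core CCCNNGGG reads the same on both strands, and 13.7% of 32851 RefSeq promoter windows hold it. A longer form, the core with a T before it and an A after it, also reads the same on both strands and is in 0.904% of them. Neither of the 2 Ebf1 windows held the core. Their GC contents were 36.7% and 53.0%, and of all promoter windows within 5 percentage points of these, 2.88% and 12.1% held it. The Ebf4 window, at 74.3% GC, held none, where 32.6% of windows of like GC content did. The Ebf3 window, at 77.0% GC, held 1 core match, beginning 21 bases before the start, and 35.1% of windows of like GC content also held at least 1. No window of the 3 genes held the longer form. The 250 bases before the first annotated start of Ebf1 (chr11:44617850-44618099, plus strand, GRCm38.p6) are printed here because this is the gene of the precipitated factor itself. They are followed by 30 bases around the match at Ebf3 (chr7:137314448-137314477, minus strand, GRCm38.p6), with the match in capitals, because it is the only core match in the family's windows.
Ebf1: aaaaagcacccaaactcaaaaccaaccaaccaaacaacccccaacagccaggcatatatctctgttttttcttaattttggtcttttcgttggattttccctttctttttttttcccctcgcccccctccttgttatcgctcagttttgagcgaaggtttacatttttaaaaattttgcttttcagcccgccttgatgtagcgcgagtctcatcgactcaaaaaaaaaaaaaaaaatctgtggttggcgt
Ebf3: acagcgccgctCCCGGGGGcttcgagtttt
A run of these letters is a description of the sequence and not a bound site. In a list of 13 other genes that work with Ebf1 or are known targets in B cells or fat cells, 10 had a promoter window in the table, with 13 windows in all, and 4 windows of 4 genes held the core. For the 13 windows, the share of all windows of like GC content that held it was 3.71% to 38.3%, with a mean of 20.3%. The 4 were Zfp423, a zinc finger partner of Ebf proteins that promotes fat cell commitment, Cebpb, an early fat cell regulator, Igll1, a part of the pre-B cell receptor, and Foxo1, a target of insulin signalling. The Foxo1 window also held the longer form. No core was found in any window of Pparg, Cebpa, Tcf3, Pax5, Cd79a or Vpreb1, nor in the other Zfp423 window.

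Ebf1 peaks were denser than the list as a whole at Ebf1 and Ebf2, and at Ebf4 only with its flanks and weak peaks included, but not at Ebf3. The list held 13.3 peaks per Mb over chromosomes 1 to 19 and X. The Ebf1 interval, 492 kb on chromosome 11 from 44380001 to 44872000, held 40.7 peaks per Mb (exact Poisson 95% interval 24.8 to 62.8). The Ebf4 interval, 177 kb on chromosome 2 from 130070001 to 130247000, held 39.5 (15.9 to 81.5). The Ebf2 interval, 298 kb on chromosome 14 from 67802001 to 68100000, held 33.6 (16.1 to 61.7). The Ebf3 interval, 222 kb on chromosome 7 from 144335001 to 144557000, held 9.01 (1.09 to 32.5). These are 3.06, 2.98, 2.53 and 0.679 times the density of the list. Without the flanks the ratio at Ebf4 was 0.978, and with only peaks at or above the median score it was 0. Under the same steps it was 3.46 and 3.93 at Ebf1 and 3.42 and 2.99 at Ebf2. With the intervals widened by 50 kb at each end the ratio fell to 2.80 at Ebf1, 1.89 at Ebf2 and 2.45 at Ebf4. The intervals of the 4 loci overlap one another, which does not by itself show that their densities are alike. The order of the loci was not tested. For Ebf3 the interval also spans the density of the list. Intervals cover counting error only and are too narrow where peaks lie in groups, as they do here.

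**Figure D1:**
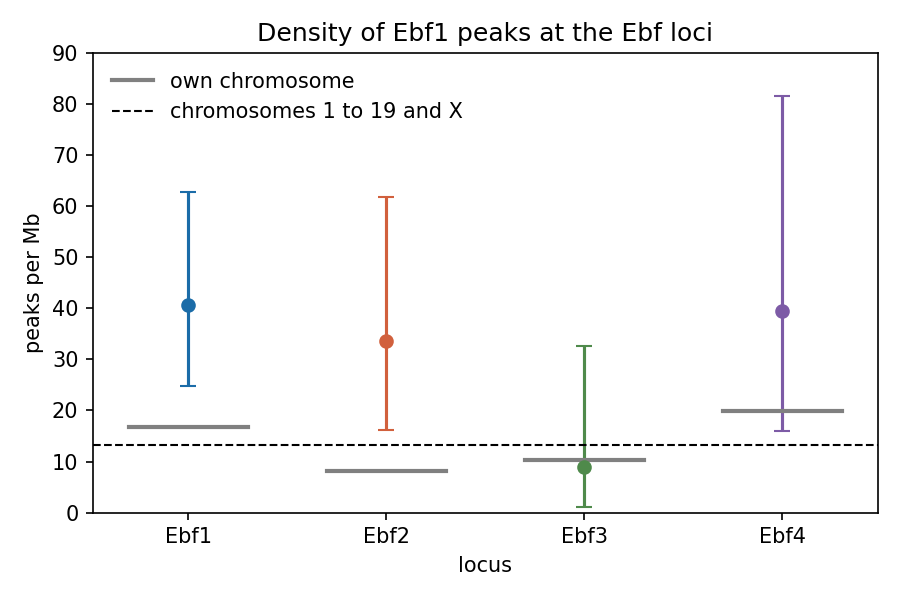
Density of Ebf1 peaks per Mb at the 4 Ebf loci, with exact Poisson 95% intervals as error bars, the density of each gene's own chromosome as a grey line and that of chromosomes 1 to 19 and X as a dashed line. The points for Ebf1 at 40.7, Ebf2 at 33.6 and Ebf4 at 39.5 lie above both lines, and Ebf3 at 9.01 lies below both.

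The chromosome a gene sits on changed the size of this ratio. Chromosome 14 held 8.21 peaks per Mb, so Ebf2 stood 4.09 times above its own chromosome. Ebf1 stood 2.41 times above chromosome 11, and Ebf4 stood 2.00 times above chromosome 2, whose 19.8 peaks per Mb lie within the Poisson interval of the Ebf4 locus. Ebf3 was at 0.877 of chromosome 7.

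Peaks are spread unevenly over the genome, so each locus was also set beside all stretches of its own length, laid end to end over chromosomes 1 to 19 and X. Of 5220 stretches as long as the Ebf1 interval, 6.02% held at least 20 peaks, and the median stretch held 4. For Ebf2, 11.9% of 8623 stretches held at least 10 peaks, with a median of 2. For Ebf4, 9.93% of 14523 stretches held at least 7, with a median of 1. For Ebf3, 49.5% of 11577 stretches held at least 2, with a median of 1. Ebf1, Ebf4 and Ebf2 were thus in the richer part of the genome without being at its extreme, and Ebf3 was near the middle. Within their own chromosomes, 19 of 241 stretches on chromosome 11 matched or exceeded the Ebf1 count and 13 of 403 on chromosome 14 the Ebf2 count. The same held for 170 of 1009 on chromosome 2 for Ebf4 and 287 of 672 on chromosome 7 for Ebf3.

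**Figure D2:**
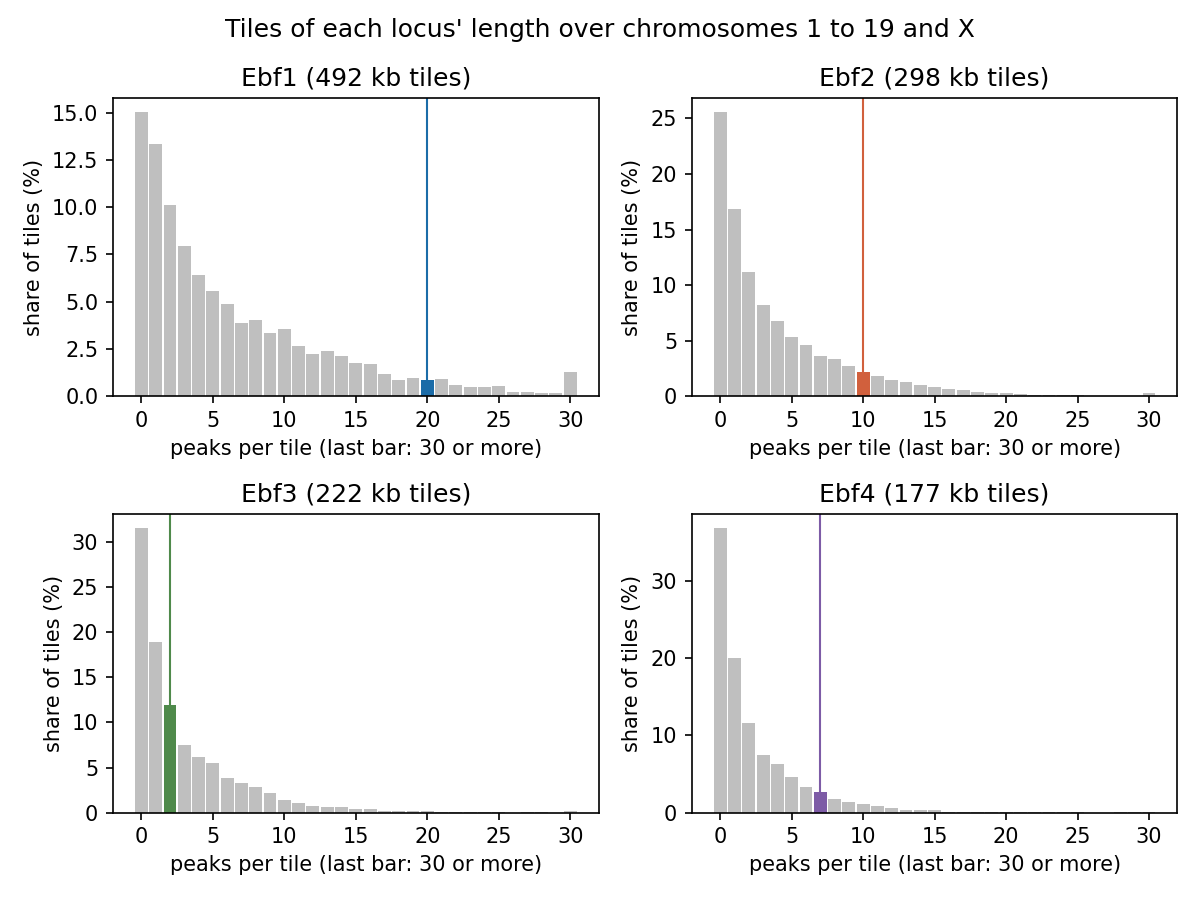
Share of stretches (tiles, y axis, percent) by the number of Ebf1 peaks in each (x axis, with 30 or more in the last bar), for tiles as long as each locus. The coloured bar and line mark the count at the locus, which was 20 for Ebf1, 10 for Ebf2, 2 for Ebf3 and 7 for Ebf4.

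Strong peaks were found at Ebf1 and Ebf2, the loci with the most peaks, at a share near that of the list. Ebf4, with 7 peaks, had lower scores than Ebf3, with 2. Each peak carries a whole-number score that the authors deposited without stating its meaning, from 3 to 597 in the list with a median of 13. Ranks by this score are used below, and its ratios and sums describe the deposited numbers and are not amounts of bound protein. A peak is called strong below where its score is 55 or more, the top 10% of the list. Of the 39 peaks, 3 were strong, or 7.69% (exact Clopper-Pearson 95% interval 1.62 to 20.9), against 10.2% of the list. There were 2 of 20 at Ebf1 and 1 of 10 at Ebf2, which is 10.0% at each and near the share of the list. None were found at Ebf3 or Ebf4, where the exact 95% upper limits were 84.2% and 41.0%, so a lower share was not detectable. A strong peak lay in 33.3% of all stretches of the Ebf1 length, 23.9% of those of the Ebf2 length, 19.4% of those of the Ebf3 length and 16.3% of those of the Ebf4 length. Scores at or above 13 were reached by 20 of the 39 peaks, against 50.6% of the list. By locus these were 13 of 20 at Ebf1, 6 of 10 at Ebf2, 1 of 2 at Ebf3 and 0 of 7 at Ebf4. The score medians were 17 at Ebf1, 15.5 at Ebf2, 12 at Ebf3 and 7 at Ebf4. The family as a whole thus had the same median score as the list, 13, with higher medians at Ebf1 and Ebf2 and lower ones at Ebf3 and Ebf4.

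**Figure D3:**
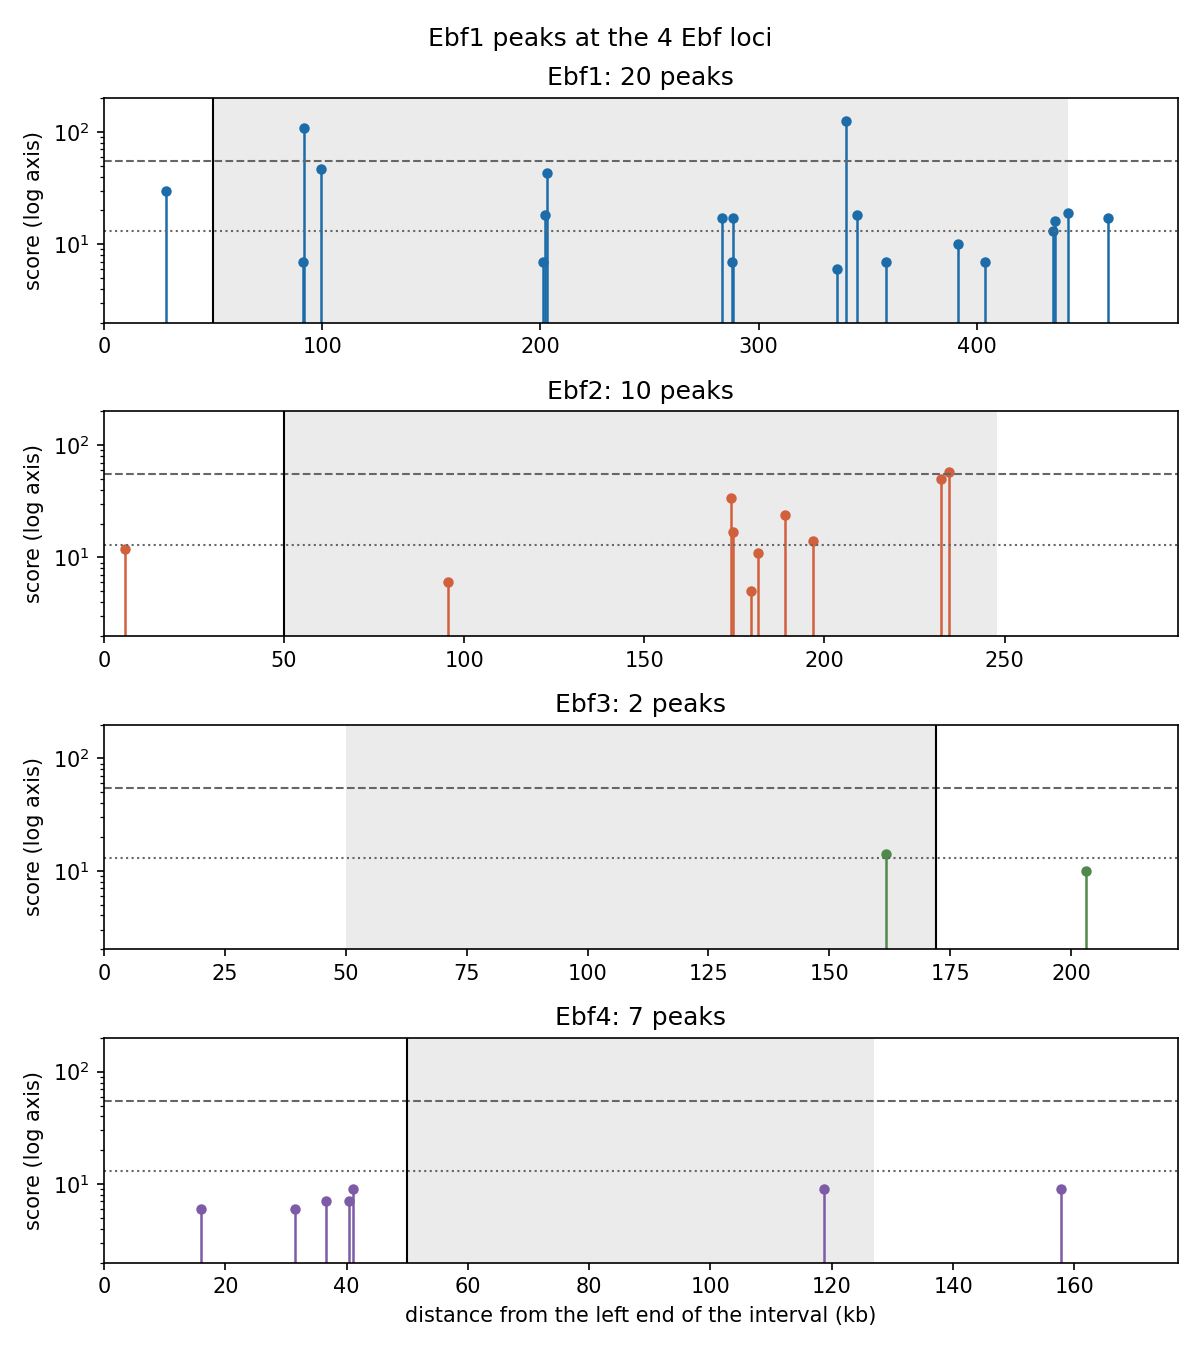
Score of each Ebf1 peak (y axis, log scale) against distance from the left end of each interval (x axis, kb). Grey marks the approximate gene, the black line the end where transcription starts, the dotted line the list median of 13 and the dashed line the strong threshold of 55, which 2 peaks at Ebf1 and 1 at Ebf2 pass.

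At Ebf1, the gene of the factor itself, 18 of the 20 peaks lay in the 392 kb left after taking 50 kb off each end of the interval, which approximates the gene. The strongest, from 44719751 to 44720575 on chromosome 11 (mm9), scored 126, or 9.69 times the list median, and was 825 bp wide. A score at least as high was found for 2.00% of the list, and the peak ranked 38 among the 1997 on its chromosome. It lay about 290 kb inside the approximate gene from the end where transcription starts. The next, from 44471501 to 44472125, scored 109 and lay about 41.8 kb inside. The one after that, from 44479176 to 44479675, scored 47, below the strong threshold. A peak of at least 126 was found in 10.8% of stretches of this length. Among the 314 stretches with 20 or more peaks, 156 held one. Of these 314, 46 held exactly 20 peaks and the richest held 137. Because richer stretches have more chances of a high score, this does not rank Ebf1 among stretches of its own count.

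Most of the Ebf1 peaks came in small groups along the gene. With peaks joined where centres lay within 12.5 kb of the next, 17 of the 20 fell into 6 groups of 2 or 3. The first group, from 44471076 to 44479675, scored 7, 109 and 47 in order along the chromosome. The next, from 44581226 to 44583425, packed scores of 7, 18 and 43 into 2200 bp. A group from 44663176 to 44668475 scored 17, 7 and 17. The strongest peak stood in the group from 44716001 to 44725250, between peaks that scored 6 and 18. The pair from 44771301 to 44783700 scored 10 and 7. The last group, from 44815001 to 44821850, scored 13, 16 and 19 and lay at the far end of the approximate gene. In 2 of the 6 groups a strong peak thus stood beside peaks below the strong threshold, and in 3 no peak passed 19.

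Outside these groups 3 peaks at Ebf1 stood alone. A peak from 44408251 to 44408700 scored 30 and lay about 21.5 kb before the approximate start. A peak from 44738351 to 44738550 within the gene scored 7, and a peak from 44840001 to 44840400, past the far end, scored 17. The longest stretch without a peak centre ran for 102 kb, from about 49.4 to 151 kb inside the approximate gene. Just outside the interval, the nearest peaks on either side scored 7 and 6, against 30 and 17 for the outermost peaks inside it. The 4 highest scores made up 60.1% of the summed score of 541, and 6 of the 20 peaks scored 8 or less, the lower quartile of the list, as did 25.7% of the list.

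At Ebf2, peaks were gathered in the later part of the gene. Of the 10 peaks, 8 lay within 60.9 kb, from 67975801 to 68036725 on chromosome 14 (mm9), about 124 to 184 kb inside the approximate gene, which is 198 kb long. These 8 carried 92.2% of the summed score of 231. They formed a group of 6, with scores of 34, 17, 5, 11, 24 and 14 in order along the chromosome, and a pair that scored 50 and 58. The strongest peak at Ebf2, from 68036201 to 68036725, scored 58, or 4.46 times the list median. Its partner, from 68034026 to 68034600, scored 50 and missed the strong threshold by 5. The one after these, from 67975801 to 67976350, scored 34. A peak of at least 58 was found in 22.7% of stretches of this length. Among the 1030 stretches with 10 or more peaks, 776 held one. Of these 1030, 191 held exactly 10 peaks and the richest held 88. A stretch with more peaks has more chances of a high score, so this does not rank Ebf2 among stretches of its own count. The other 7 peaks at Ebf2 scored 5 to 24.

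Towards the start of Ebf2 there were 2 peaks, both of them alone. A peak from 67897251 to 67897475 scored 6, about 45.4 kb inside the approximate gene. A peak from 67807676 to 67808000 scored 12 and lay about 44.2 kb before the start, with 89.5 kb free of peak centres between the pair. The second deposited value, a whole number from 0 to 15 whose meaning is also not stated, was 5 at this peak, the highest of the 39. Past the end of the gene no peak lay in the interval, and the next one beyond it, 119.7 kb past its edge, scored 24. The nearest outside the other edge, 66.8 kb away, scored 90.

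At Ebf3, a gene read from right to left on chromosome 7, only 2 peaks were listed, both at the side of the start. The one from 144496501 to 144496850 (mm9) scored 14 and lay about 10.3 kb inside the approximate gene. The other, from 144537876 to 144538175, scored 10 and lay about 31.0 kb before the start. The remaining 162 kb of the interval, which holds most of the gene, had no peak centre. The second value was 0 at both peaks, as at 29.8% of the list. A peak scoring at least 14 was found in 45.7% of all stretches of this length, so Ebf3 was near the middle in score as well as in number. With 2 peaks, a lower density than that of the list was not detectable.

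At Ebf4, peaks were many and all of them weak. The 7 scores in order along the chromosome were 6, 6, 7, 7, 9, 9 and 9, none of them at the list median (0 of 7, exact 95% upper limit 41.0%). The highest score, 9, was shared by the peaks from 130110951 to 130111150, from 130188576 to 130188800 and from 130227601 to 130227850 (mm9). Of 1442 stretches of this length with at least 7 peaks, 2 had no score above 9, and neither overlapped the Ebf4 locus. Both held 7 peaks, and 384 of the 1442 held exactly 7. A peak scoring at least 9 was found in 53.0% of all stretches, empty ones included. The locus was thus rich in listed peaks and low in score at the same time.

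The Ebf4 peaks also lay mostly outside the gene. Only 1 of the 7, the peak from 130188576 to 130188800, lay in the 77 kb that approximate it, while 5 lay in the 50 kb before the start and 1 past the end. Of the 5, 4 formed a group from 130101426 to 130111150, about 18.5 to 8.95 kb before the approximate start. In the RefSeq gene order the protein-coding neighbour on that side of Ebf4 is Idh3b, a subunit of a mitochondrial isocitrate dehydrogenase, followed by Nop56, a nucleolar protein. Cpxm1 follows on the other side. The peaks were not assigned to any of these genes, because no mm9 annotation was used. At Ebf1 and Ebf2, 18 of 20 and 9 of 10 peaks lay in the approximate gene.

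No Ebf1 peak centre was found within 5 kb of the approximate start of any of the 4 genes, and 2 lay within 10 kb. The nearest lay about 21.5 kb away at Ebf1, 44.2 kb at Ebf2, 10.3 kb at Ebf3 and 8.95 kb at Ebf4. How often list peaks lie near gene starts was not known, because no mm9 annotation was used. The absence is therefore not a trait shown to be particular to these genes. Since the intervals were given as the gene and about 50 kb, these distances are approximate, and a start inside a gene would not be seen in them. In all, 29 of the 39 peaks, 74.4%, lay in the approximate genes, which make up 66.4% of the length searched, and 10 lay in the flanks. The loci differed in this, from 18 of 20 at Ebf1 to 1 of 7 at Ebf4. The neighbours in gene order are Rnf145 and Clint1 for Ebf1, Ppp2r2a and Cdca2 for Ebf2, and Mgmt and the uncharacterised 9430038I01Rik for Ebf3.

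Closely spaced peaks were common among the 39. Another peak centre lay within 2 kb of 15 of them, or 38.5% (exact 95% interval 23.4 to 55.4), against 21.0% of the list. Closeness is mutual, so the peaks do not count independently and this interval is too narrow. The 2 kb distance was also set after the values had been seen. The 4 loci together held 32.8 peaks per Mb against 13.3 in the list. Whether this density accounts for the close spacing was not tested. These were 9 at Ebf1, 4 at Ebf2, 2 at Ebf4 and none at Ebf3. Of the 8 such neighbouring pairs, the closest by centre was at Ebf1, where centres 487.5 bp apart belonged to peaks that scored 7 and 17. By the gap between edges the closest was at Ebf2, where 75 bp separated the peaks that scored 34 and 17. At Ebf1, an edge gap of 200 bp separated the peak that scored 109 from a neighbour that scored 7. Whether peaks this close are separate sites was not tested. Only 10 of the 39 peaks, 25.6%, had no other centre within 12.5 kb, against 43.8% of the list.

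The scores lay on both sides of the median of list peaks of the same width. Of the 39 peaks, 14 scored above the median of list peaks of their own width, 6 at it and 19 below it. The strongest Ebf1 peak, at 126, stood beside a median of 117 for the 89 peaks of 825 bp, and 46.1% of these scored as high. The peak that scored 109 stood beside a median of 75.5 at 625 bp, with 21.3% of 390 peaks as high. The Ebf2 peak that scored 58 stood beside a median of 45 at 525 bp, with 27.4% of 927 as high. The Ebf1 peak from 44815001 to 44815225 scored 13 at a width of 225 bp, where the median was 8 and 5.32% were as high, the smallest such share of the 39. The largest share, 99.9%, was at the Ebf1 peak from 44581226 to 44581500, which scored 7 against a median of 11 at 275 bp. The peaks with the smallest and the largest share were chosen after their values were seen. The Ebf2 peak that scored 34 stood below a median of 54 at 550 bp. At Ebf4 the widths were 200 to 250 bp, at the low end of the list, whose narrowest peaks were 200 bp wide.

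**Figure D4:**
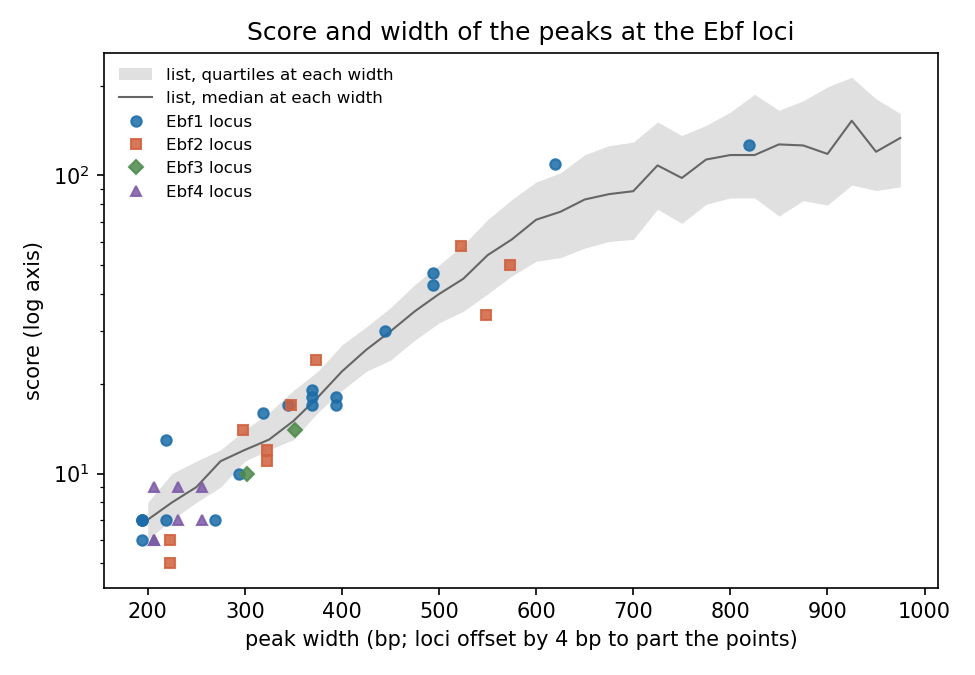
Score (y axis, log scale) against width (x axis, bp) of the 39 peaks at the Ebf loci, over the median (line) and quartiles (grey band) of list peaks at each width. The Ebf4 peaks are narrow with scores up to 9, and 3 peaks reach a score of 55, at widths of 525, 625 and 825 bp.

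The second value was 0 at 12 of the 39 peaks, 30.8%, against 29.8% of the list. Its median was 1 at Ebf1, Ebf2 and Ebf4, as in the list. The strong peaks had second values of 2 and 2 at Ebf1 and 0 at Ebf2. The highest at Ebf1 was 4, at the peak from 44668101 to 44668475, and the highest at Ebf4 was 3.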

How the data were processed

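The authors deposited a list of Ebf1 peaks on mm9 with 2 whole-number score columns of unstated meaning. Per the submitters' processing notes, SAMtools was among the tools. Not given in the sources used here are the aligner, the peak caller, its threshold and any use of the whole cell extract. The depth is unknown. Further columns held the constants 1 and 0.

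Positions were read as 1-based, since every end, and every base just before a start, fell on a 25 bp grid. The 4 intervals were given in mm9. Cutting 50 kb off each end approximated the gene, and strand followed the RefSeq promoter table, or for Ebf2 general knowledge. Peaks per Mb used each chromosome's length between its outermost peaks, and the same-length stretches began at the first peak. Gaps in the assembly were not left out of either. Intervals are exact Poisson or Clopper-Pearson at 95%. There is 1 library, so nothing was tested. Counting was checked on simulated positions with planted peaks. Genes named by rule are the 4 members, their neighbours in gene order and, for the promoter motif, a list of 13 genes. The rule for peaks names those in the top 10% by score in each locus, or the 3 highest where there are fewer than 3. Other peaks, such as those that stood alone, were named after their values were seen. The members, intervals and gene list were chosen with earlier results of these data known. The 2 kb distance, the counts by width and the choice of richest stretches were set after the values had been seen. A planned alignment of the 4 proteins was not run. The scripts ran in Python 3.11.15 with scipy 1.17.1 for intervals, pandas 2.3.3 and numpy 2.4.6 for tables and matplotlib 3.10.9 for plots.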

Additional observations from a re-analysis of the deposited data

How the results depend on the processing

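Of 100 alternative values, 83 were unmoved and 17 moved. Unmoved means within 1.5 times for a count, inside the Poisson interval for a density and equal for a highest score. Some values could not move. Keeping peaks at or above the median score cannot change a count of strong peaks, and a stricter threshold cannot raise a count of 0. The Poisson intervals are wide, so a ratio of 4.09 against 2.53 at Ebf2 was called unmoved. The tally is therefore not a measure of how robust the results are. Counting any overlap of at least 1 base in place of the centre moved none. Cutting the intervals by 50 kb at each end left 1 peak at Ebf3 and 1 at Ebf4, where the density fell to 0.978 times that of the list and the number of groups to 0. Widening them by 50 kb raised the highest score at Ebf3 to 24 and at Ebf4 to 25, and the groups at Ebf4 to 2. Keeping peaks at or above the median score left, by construction, 13 at Ebf1, 6 at Ebf2, 1 at Ebf3 and 0 at Ebf4. The density and the number of groups at Ebf4 were then 0. Ebf4 had no highest score under this setting, which was entered as 0 and counted as moved. With strong set as the top 25% (a score of 26 or more), Ebf1 had 5 strong peaks and Ebf2 3, and as the top 5% (84 or more), Ebf2 had 0. Joining distances of 5 and 25 kb and the own chromosome as background moved no value past these limits. No replicate could be left out, and no paired analysis was possible because only 1 library had values. The depth is unknown, so weak peaks such as those at Ebf4 cannot be told from chance calls.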
